A study of Phlebiopsis gigantea with 8 samples.

Results

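Glutathione, thioredoxin and the enzymes that remove hydrogen peroxide and superoxide are described here for the white-rot basidiomycete *Phlebiopsis gigantea*, an early colonizer of freshly cut conifer wood. Members were the gene models whose putative function or InterPro description in the deposited expression table contains glutathione, thioredoxin, glutaredoxin, peroxiredoxin, redoxin, alkyl hydroperoxide, superoxide dismutase or catalase, and 91 of 11892 gene models matched. Among them, 79 belong to glutathione, thioredoxin or antioxidant classes, and the other 12 (5 cupredoxins and 7 ferredoxins) matched only through the letters "redoxin" and are treated apart. RNA was sequenced from mycelium of 8 cultures in 250 ml of basal salts, harvested on day 5, with 1 library per culture. Ground loblolly pine wood that had been wetted with acetone and dried, and so kept its resins (NELP), fed 3 cultures. The same wood after long acetone extraction in a Soxhlet apparatus (ELP) fed another 3, and glucose (Glc) was the only carbon source of 2. The comparison of NELP with ELP addresses which transcripts respond to pine extractives, and that of each wood medium with Glc which respond to wood.

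Glutathione is a small thiol that cells conjugate to reactive or foreign compounds, a reaction catalyzed by glutathione S-transferases (GSTs), and that donates electrons to glutathione peroxidases and glutaredoxins. Thioredoxin is a small protein with a comparable role. It reduces disulfides and peroxiredoxins, which destroy peroxides, and is itself kept reduced by NADPH and thioredoxin reductase. Superoxide dismutase turns superoxide into hydrogen peroxide, which catalase splits into water and oxygen. In wood-decay fungi these systems meet both the peroxide used for lignocellulose breakdown and toxic resin compounds, and GSTs of such fungi are a large family with roles in detoxification.

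Values are RPKM (reads scaled by gene length and library size) as the authors deposited them. Being shares of a library, they cannot tell a change of a transcript from an opposite change of the remaining RNA. Read totals were not given in the sources used here, but the spacing of low values put the depth of ELP libraries, relative to NELP 1, at 0.584 to 0.705, that of NELP 2 and NELP 3 at 1.474 and 1.79, and that of the Glc libraries at 0.774 and 1.376, so all of ELP was shallower than all of NELP. The Glc libraries stood apart from those on wood and from each other. Median RPKM over all genes was 12.3 in Glc 1 and 16.3 in Glc 2 against 21.8 to 23.8 on wood, and the median gene was higher by 0.54 on the log2 scale in NELP and by 0.60 in ELP than in Glc. Rescaling the libraries to a common median ratio lowered the differences from Glc by 0.58 and 0.63, so counts against Glc are given both as deposited and rescaled. Members disagreed between the Glc libraries more often than genes at large. Of the 89 members tested, 44 (49.4%) were over 2-fold apart between Glc 1 and Glc 2, against 35.1% of all tested genes. The median standard deviation of a member on the log2 scale was 0.698 in Glc, 0.183 in NELP and 0.249 in ELP. Over all tested genes it was 0.506, 0.194 and 0.217, so Glc was the most variable medium there too.

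The members ranged from nearly undetected to among the abundant transcripts of the mycelium. Averaged over the 8 libraries, 3 members had at least 1000 RPKM, 26 had 100 to 1000, 44 had 10 to 100, 16 had 1 to 10, and 2 had under 1. The 79 antioxidant and thiol members together held 1.26 to 1.33% of the summed RPKM in NELP libraries, 1.11 to 1.24% in those of ELP, 1.21% in Glc 1 and 0.974% in Glc 2. A catalase, Phlgi1_83711 (EC 1.11.1.6), was the most abundant of these. It had 1766, 1418 and 1545 RPKM in NELP, 1285, 1398 and 1115 RPKM in ELP and 197 and 1998 RPKM in Glc, so that Glc 1 alone was far below the other 7 libraries. Next in abundance was a superoxide dismutase, Phlgi1_95407 (EC 1.15.1.1), with 1402, 837 and 878 RPKM in NELP, 1196, 1201 and 767 RPKM in ELP and 683 and 713 RPKM in Glc. All 6 wood libraries of this gene lay above both Glc libraries, ELP 3 only just, and NELP and ELP overlapped. The leading thioredoxin, Phlgi1_77970, had 899.6, 911 and 884 RPKM in NELP, 1195, 1069 and 982 RPKM in ELP and 493 and 859.6 RPKM in Glc. Its NELP libraries were almost equal and lay below all 3 ELP libraries. Limma did not call this log2 difference in the fit over all 3 media (-0.26 ± 0.23 (SE), adjusted p = 0.607). A fit of NELP and ELP alone gave a SE of 0.13 and did not call it either (adjusted p = 0.215). The 4 glutaredoxins, which reduce mixed disulfides with glutathione, were led by Phlgi1_17880 with 268, 216 and 189 RPKM in NELP, 443, 330.4 and 261 RPKM in ELP and 227 and 118 RPKM in Glc. NELP and ELP overlapped narrowly, and Glc 2 was the lowest library. Peroxiredoxins comprised 7 genes and GSTs 30, of which 11 carried the EC number of glutathione transferase (2.5.1.18), 3 another EC number and 16 none. The one glutathione synthase, Phlgi1_78321, which makes the last step of glutathione synthesis, was low in every medium, with 10, 11.3 and 9.71 RPKM in NELP, 10.3, 11.7 and 10.9 RPKM in ELP and 14.8 and 5.87 RPKM in Glc. Glc 1 lay above and Glc 2 below all 6 wood libraries of this gene.

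In the fit over all 3 media, no member passed the test between NELP and ELP (limma on log2(RPKM + 0.5), adjusted p under 0.05 after Benjamini-Hochberg adjustment over the 10999 genes that averaged 1 RPKM or more), where 0.00909% of all tested genes were called higher in NELP and 0% lower. At an unadjusted p under 0.05, 8 members were higher and 8 lower in NELP, where 7.23 and 9.12% of all genes were. With the libraries rescaled in that fit, 1 member, the GST Phlgi1_113065, was called higher (adjusted p = 0.0493) and none lower, and with a mean-variance trend 1 was called higher and none lower. The rescaled fit called 0.245% of all genes higher and 0.0455% lower, and the fit with a trend 0.118% and 0%. These fits take the spread of each gene from all 8 libraries, the discordant Glc pair included. In a fit restricted to NELP and ELP, here the wood-only fit, 13 of the 89 members were called. The 7 higher in NELP were 7.87% of the members, where 6.12% of all genes were called, and the 6 lower were 6.74% against 4.28%. With the libraries rescaled as well, 8 were higher and 7 lower (7.46 and 4.19% of all genes). The median member differed by -0.06 on the log2 scale, and the median gene by -0.07. Every NELP library lay above every ELP library in 16 members (16.7% of all genes did so), and below in 17 (22.1% of all genes). Adjusted p values for NELP against ELP below come from the wood-only fit unless the 3-medium fit is named. Leaving out each of the 6 cultures in turn, the members higher in NELP numbered 3, 4 and 2 without NELP 1, NELP 2 and NELP 3, and 4, 3 and 7 without ELP 1, ELP 2 and ELP 3. Over all tested genes those fits called 97, 218, 110, 187, 259 and 660 higher, against 673 with all 6 libraries. The members lower in NELP numbered 2 without any of the NELP libraries, and 2, 3 and 9 without ELP 1, ELP 2 and ELP 3. All tested genes called lower numbered 35, 58, 25, 70, 34 and 710 in the same order, against 471 with all 6 libraries. The peroxiredoxin Phlgi1_95619, the GST Phlgi1_113065, the thioredoxin-like Phlgi1_70589 and Phlgi1_18032 of the glutathione-dependent aldehyde enzymes were the 4 members called in all 6 of these fits. The share of all tested genes called in all 6 was not counted.

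**Figure D1:**
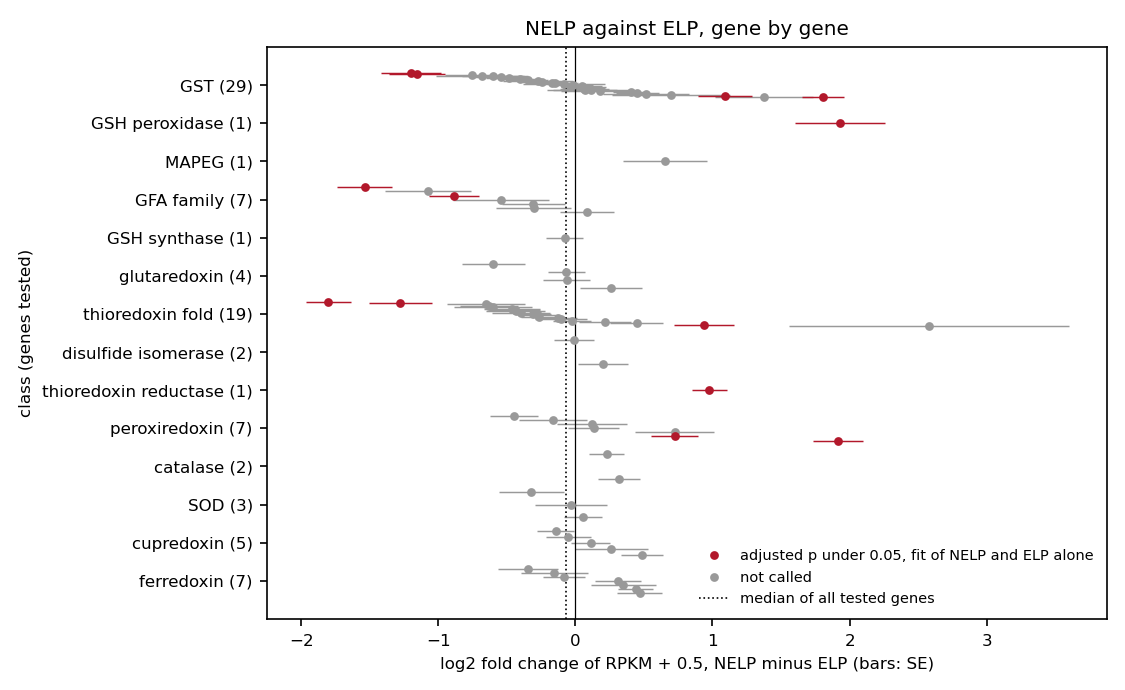
Log2 difference between NELP and ELP for the 89 tested genes by class (points, 1 gene each; bars, SE in the wood-only fit), with called genes in red and the median of all tested genes dotted. Called genes lie on both sides of 0 within the GST and thioredoxin-fold classes, and 6 of the 7 GFA genes, the glutathione-dependent aldehyde enzymes, lie below 0.

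Of the 7 peroxiredoxins, 2 were called higher in NELP (6.12% of all genes), none was called lower (4.28% of all genes) and 5 were not called. The only glutathione peroxidase and the only thioredoxin reductase were also called higher, and neither catalase was called. The peroxiredoxin Phlgi1_95619 had 108, 90.5 and 96.0 RPKM in NELP, 25.6, 31.6 and 20.7 RPKM in ELP and 147 and 78.8 RPKM in Glc. All NELP libraries were about as high as glucose, and all ELP libraries lay below every library of the other media. The NELP to ELP difference was 1.92 ± 0.18 (SE) on the log2 scale (adjusted p = 0.00725, and 0.0638 in the 3-medium fit), and without any 1 wood library the adjusted p stayed between 0.00811 and 0.0407. Phlgi1_95619 and the GST Phlgi1_113065 are named in the study, which chose them for higher RNA levels in NELP in these samples and for a detected protein. Their RNA direction here is therefore no independent evidence. The study also found both proteins in NELP culture filtrates and not in those of ELP. In its cellulose cultures, the peroxiredoxin had the same protein value with and without pine extract, and the GST was not detected in either. The only glutathione peroxidase, Phlgi1_89284 (EC 1.11.1.9), which reduces peroxides with glutathione or thioredoxin, had 486, 397 and 555 RPKM in NELP, 75.5, 132 and 192 RPKM in ELP and 263 and 74.3 RPKM in Glc. The lowest NELP library was still above the highest ELP library. Its difference was 1.93 ± 0.33 on the log2 scale (adjusted p = 0.0204), and its ELP libraries spanned 75.5 to 192 RPKM. The call held in 2 of the 6 fits without 1 wood library. Thioredoxin reductase, Phlgi1_111766, which passes electrons from NADPH to thioredoxin, had 93.1, 96.1 and 104 RPKM in NELP, 47.1, 51.0 and 50.1 RPKM in ELP and 111 and 73.5 RPKM in Glc. Both wood media were tight, ELP lay near 50 RPKM and below both Glc libraries, and NELP lay between the Glc libraries. Its difference of 0.98 ± 0.13 had an adjusted p of 0.0114, and the call was lost only without NELP 3 (adjusted p = 0.0503). A further peroxiredoxin of the AhpC-TSA family, Phlgi1_94967, had 64.3, 88.0 and 85.0 RPKM in NELP and 53.7, 44.9 and 43.8 RPKM in ELP. The wood media did not overlap, but its difference of 0.72 ± 0.17 (adjusted p = 0.0443) was called in none of the 6 fits without a wood library. The cysteine peroxiredoxin Phlgi1_91504 lay the other way, with 44.8, 45.6 and 42.1 RPKM in NELP, 76.1, 52.5 and 55.3 RPKM in ELP and 22.9 and 29.0 RPKM in Glc. Every NELP library was below every ELP library, and the difference of -0.45 ± 0.17 was not called (adjusted p = 0.123).

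Among the 29 tested GSTs, 2 were called higher and 2 lower in NELP (6.12 and 4.28% of all genes). Phlgi1_113065 (EC 2.5.1.18) had 54.4, 53.4 and 47.8 RPKM in NELP, 13.7, 17.0 and 12.8 RPKM in ELP and 54.9 and 36.2 RPKM in Glc. As for the peroxiredoxin Phlgi1_95619, ELP was the low medium, below every NELP and Glc library. The difference from NELP was 1.81 ± 0.15 on the log2 scale (adjusted p = 0.00552, and 0.0581 in the 3-medium fit), and the adjusted p did not exceed 0.0359 without any 1 wood library. Phlgi1_51501, without a function name, had 21.9, 13.3 and 18.3 RPKM in NELP and 7.88, 8.44 and 7.51 RPKM in ELP. Its difference was 1.09 ± 0.20 (adjusted p = 0.0226), and the call held in 2 of the 6 fits without 1 library. In the other direction, Phlgi1_115840 (EC 2.5.1.18) had 10.7, 8.94 and 6.71 RPKM in NELP, 23.1, 22.7 and 16.2 RPKM in ELP and 11.1 and 13.004 RPKM in Glc. Glucose lay between the wood media, above all NELP and below all ELP libraries. The difference was -1.20 ± 0.22 (adjusted p = 0.0228), and 1 of the 6 fits kept the call. The low GST Phlgi1_72050 had 2.80, 3.11 and 3.21 RPKM in NELP, 7.21, 5.60 and 9.87 RPKM in ELP and 17.0 and 8.32 RPKM in Glc, and its difference between the wood media was -1.15 ± 0.21 (adjusted p = 0.0226), called in 2 of the 6 fits. Its NELP libraries were the lowest of all, and 1 Glc library lay inside the range of ELP. Next to Phlgi1_115840 in the gene order of the reference assembly table lies the GST Phlgi1_115839, with 15.7, 17.1 and 12.7 RPKM in NELP and 32.5, 23.5 and 22.1 RPKM in ELP. It also did not overlap between the wood media but narrowly missed the call (difference -0.75 ± 0.20, adjusted p = 0.0530). How reads shared by similar genes were counted is unknown here, so values of close GST relatives are uncertain.

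**Figure D2:**
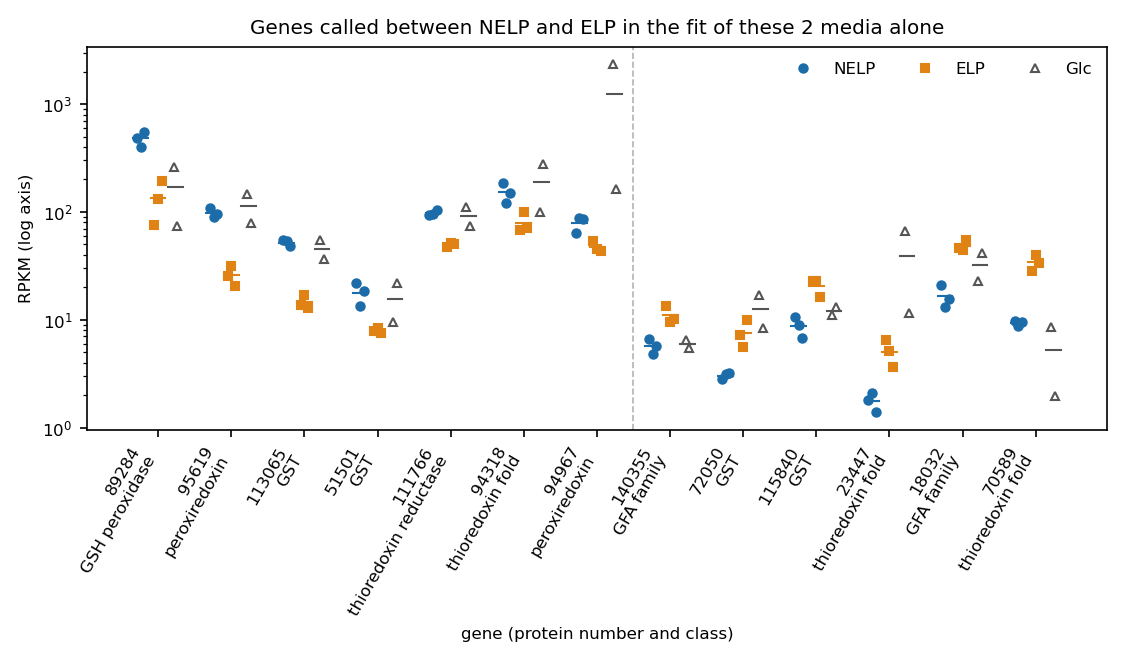
RPKM in each library (log axis; points, 1 library each; short lines, means) for the 13 genes called between NELP and ELP in the wood-only fit, 7 higher in NELP on the left of the dashed line and 6 lower on the right. NELP and ELP points do not overlap in any of the genes, and glucose libraries of Phlgi1_94967 reach 2332 RPKM.

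Thioredoxin-fold proteins, a superfamily that holds thioredoxins as well as many proteins of other function, moved both ways. Phlgi1_70589, a thioredoxin-like gene without an assigned function, had 9.82, 8.69 and 9.46 RPKM in NELP, 28.1, 40.2 and 33.9 RPKM in ELP and 8.47 and 1.98 RPKM in Glc. ELP was the high medium, above every NELP and Glc library, and the NELP libraries lay just above the higher Glc library. The difference was -1.80 ± 0.17 (adjusted p = 0.00671), the largest decrease among called members, and the adjusted p did not exceed 0.0380 without any 1 wood library. Phlgi1_94318, with the EC number of protein disulfide isomerase (5.3.4.1), which forms and reshuffles disulfide bonds in secreted proteins, had 187, 120.2 and 150.3 RPKM in NELP, 68.5, 99.0 and 70.4 RPKM in ELP and 99.1 and 276 RPKM in Glc. Its NELP libraries lay above all of ELP, with a difference of 0.94 ± 0.22 (adjusted p = 0.0424), but no fit without a wood library kept this call. The other 3 genes with this EC number were not called. The most abundant, Phlgi1_95218, had 292, 293 and 398 RPKM in NELP and 239, 294 and 318 RPKM in ELP. The low thioredoxin-like Phlgi1_23447 had 1.82, 2.11 and 1.38 RPKM in NELP and 6.46, 5.16 and 3.61 RPKM in ELP, a difference of -1.28 ± 0.23 (adjusted p = 0.0225) that 1 of 6 such fits kept. The widest difference of any member belonged to the thioredoxin-like Phlgi1_60352, with 27.5, 7.99 and 18.1 RPKM in NELP, 3.74, 9.28 and 0 RPKM in ELP and 6.78 and 70.9 RPKM in Glc. ELP 3 was listed at 0, libraries of the same medium differed severalfold, and the difference of 2.58 ± 1.02 was not called (adjusted p = 0.131).

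The glutathione-dependent aldehyde enzymes (GFA family, whose founding bacterial member was described as a glutathione-dependent formaldehyde-activating enzyme) comprised 7 genes. Of these, 6 had a lower mean in NELP than in ELP, and 2 were called lower (4.28% of all genes). The median tested gene was also lower in NELP (-0.07 on the log2 scale), and the share of all genes with a lower mean was not counted. Among the 6, Phlgi1_64149 and Phlgi1_326289 were low, and neither difference was called (-0.30 ± 0.27, adjusted p = 0.464, and -0.54 ± 0.35, adjusted p = 0.314). Phlgi1_18032 had 21.0, 13.1 and 15.7 RPKM in NELP, 46.4, 44.3 and 54.6 RPKM in ELP and 23.1 and 41.6 RPKM in Glc. ELP lay above and NELP below both Glc libraries, with no overlap anywhere. The difference was -1.54 ± 0.20 (adjusted p = 0.0107, at most 0.0469 without any 1 wood library). Phlgi1_140355, at lower levels, had 6.57, 4.82 and 5.76 RPKM in NELP, 13.4, 9.56 and 10.1 RPKM in ELP and 6.44 and 5.41 RPKM in Glc. Its difference was -0.89 ± 0.18 (adjusted p = 0.0312), kept in 1 of 6 fits without a library. The family's most abundant gene, Phlgi1_124928, had 28.8, 33.9 and 25.7 RPKM in NELP, 102, 57.8 and 40.9 RPKM in ELP and 139 and 61.5 RPKM in Glc. Every NELP library was below every ELP library, the ELP libraries spread over more than 2-fold, and the difference of -1.07 ± 0.32 was not called (adjusted p = 0.0683). In the reference assembly table (Phlgi1, matched by protein number), 6 of the 7 genes follow each other without a gene between them, in the order Phlgi1_18030, Phlgi1_43224, Phlgi1_124928, Phlgi1_64149, Phlgi1_18032 and Phlgi1_140355. Members of this row did not share 1 pattern. Phlgi1_18030 had 57.4, 39.7 and 47.7 RPKM in NELP, 41.2, 55.3 and 39.8 RPKM in ELP and 26.9 and 26.3 RPKM in Glc, with NELP and ELP overlapping and both above Glc. Phlgi1_43224 had 48.4, 46.7 and 53.5 RPKM in NELP, 67.3, 78.7 and 43.3 RPKM in ELP and 13.6 and 38.0 RPKM in Glc, also above Glc 2 in every wood library. Phlgi1_64149 was low throughout, at 5.07, 2.24 and 2.55 RPKM in NELP, 3.48, 3.96 and 4.45 RPKM in ELP and 0.985 and 9.39 RPKM in Glc. The only GFA gene elsewhere, Phlgi1_326289, had at most 3.18 RPKM in any library.

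**Figure D3:**
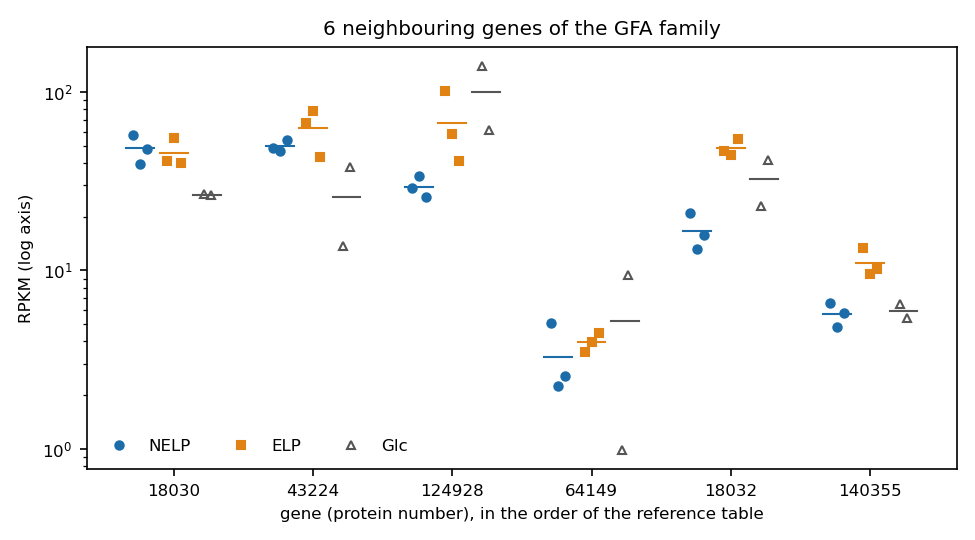
RPKM (log axis) of the 6 neighbouring GFA genes in each library (points) with the mean of each medium (short lines), in gene order. NELP lies below ELP without overlap in Phlgi1_124928, Phlgi1_18032 and Phlgi1_140355, while NELP and ELP overlap in the other 3.

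For the other 76 tested members no difference was called between NELP and ELP, which does not show equal levels. In 60 of them the estimated difference was within 0.5 on the log2 scale, in 13 it was 0.5 to 1, and in 3 it was 1 or more (the thioredoxin-like Phlgi1_60352, the GFA gene Phlgi1_124928 and the GST Phlgi1_10115). Phlgi1_10115 (EC 2.5.1.18) had 119, 55.8 and 71.9 RPKM in NELP, 29.6, 44.6 and 20.1 RPKM in ELP and 82.2 and 78.0 RPKM in Glc. All NELP libraries lay above all ELP libraries, NELP 1 was the highest by a wide margin, and the difference of 1.38 ± 0.36 narrowly missed the call (adjusted p = 0.0530). The catalase Phlgi1_83711 differed by 0.32 ± 0.15 (adjusted p = 0.199), the other catalase Phlgi1_99700 by 0.23 ± 0.13 (adjusted p = 0.247), and the superoxide dismutase Phlgi1_95407 by -0.03 ± 0.26 (adjusted p = 0.945). None of the 3 superoxide dismutases, 4 glutaredoxins or 2 catalases was called. The MAPEG protein Phlgi1_36079, of a membrane family that includes microsomal GSTs, had 202, 153 and 228 RPKM in NELP, 81.2, 120.3 and 184 RPKM in ELP and 52.7 and 96.7 RPKM in Glc, with NELP and ELP overlapping. The most abundant GST, Phlgi1_129073, also overlapped between the wood media (difference 0.51 ± 0.31, adjusted p = 0.288).

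Against glucose, as deposited, 15 members (16.9%) were higher in NELP, where 29.5% of all tested genes were called, and 6 (6.74%) were lower, where 3.67% were. In ELP 21 members (23.6%) were higher, against 37.3% of all genes, and 10 (11.2%) lower, against 5.14%. The median member was 0.26 higher in NELP and 0.36 higher in ELP on the log2 scale, below the medians of all genes, 0.54 and 0.60. After rescaling, 2 members were higher and 10 lower in NELP (6.64 and 7.09% of all genes), and 6 higher and 19 lower in ELP (10.6 and 11.4% of all genes). In fits of only the media compared, 2 were higher and 3 lower in NELP (7.79 and 1.12% of all genes), and 11 higher and 3 lower in ELP (17.4 and 2.25% of all genes). With rescaling and only the media compared together, 0 were higher and 1 lower in NELP (1.2 and 1.38% of all genes), and 0 higher and 3 lower in ELP (1.44 and 2.35% of all genes). Every NELP library lay above both Glc libraries in 32 members (49.7% of all genes) and below both in 12 (7.84% of all genes), and every ELP library above both in 32 (51.4% of all genes) and below both in 17 (8.93% of all genes). Both comparisons use the same 2 Glc libraries. Leaving out either of them leaves a lone Glc library that adds no spread, so counts from such fits are not given. Without NELP 1, NELP 2 or NELP 3, the members higher in NELP were 4, 5 or 9 (13.1, 8.69 or 15.4% of all genes) and the members lower 3 each time (1.79, 1.47 or 1.75%). Without ELP 2 those counts were 8 and 3 (18.6 and 2.25% of all genes). The counts for ELP were 11 and 6 without ELP 1 (24.4 and 3.10% of all genes), 12 and 6 without ELP 2 (23.5 and 3.14%), and 16 and 5 without ELP 3 (30.0 and 3.55%).

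**Figure D4:**
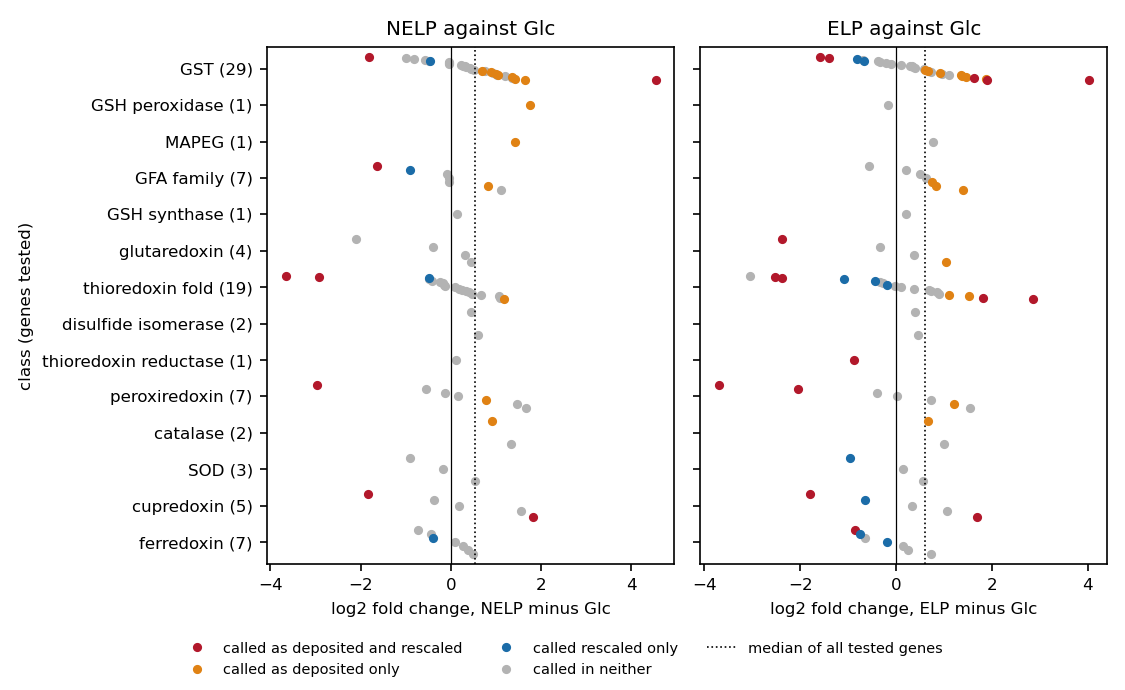
Log2 difference from glucose (points, 1 gene each) for NELP and ELP by class, colored by whether the 3-medium fit called the gene as deposited, after rescaling by median ratio, or in both; the dotted line is the median of all tested genes, 0.54 in NELP and 0.60 in ELP. The GST Phlgi1_129073 lies farthest to the right in both panels.

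GSTs, the largest class with 30 of the 91 members, were also the largest group among the members called higher on wood as deposited. Of 29 tested GSTs, 8 were higher and 1 lower in NELP (29.5 and 3.67% of all genes), and 10 higher and 2 lower in ELP (37.3 and 5.14% of all genes). After rescaling, 1 was higher and 2 lower in NELP (6.64 and 7.09% of all genes), and 3 higher and 4 lower in ELP (10.6 and 11.4% of all genes). The largest rise of any member was that of Phlgi1_129073 (EC 2.5.1.18), with 927, 1135 and 899 RPKM in NELP, 1112, 644 and 454 RPKM in ELP and 13.2 and 131 RPKM in Glc. All 6 wood libraries lay above both Glc libraries, which themselves stood far apart. It was higher by 4.53 ± 0.83 (SE) in NELP (adjusted p = 0.00944) and by 4.02 ± 0.83 in ELP (adjusted p = 0.00883), and also after rescaling (adjusted p = 0.0191 and 0.0227). Against Glc 2 alone the rise was 2.90 in NELP and 2.39 in ELP, and against Glc 1 alone 6.17 and 5.65. The other GSTs named by size had smaller rises. Phlgi1_32476, which has a GST C-terminal domain and the EC number of valine-tRNA ligase (6.1.1.9) and thus need not be a transferase, had 81.1, 59.6 and 54.1 RPKM in NELP, 114, 93.3 and 76.7 RPKM in ELP and 15.9 and 38.4 RPKM in Glc (ELP higher by 1.90 ± 0.39, adjusted p = 0.00845, and 0.0344 rescaled). Phlgi1_76517 (EC 2.5.1.18) had 63.9, 65.4 and 41.5 RPKM in NELP, 131, 99.3 and 55.2 RPKM in ELP and 15.8 and 36.6 RPKM in Glc. NELP 3 lay close to Glc 2, and only ELP was called higher, by 1.87 ± 0.47 (adjusted p = 0.0162, and 0.0679 rescaled). Phlgi1_17849 had 39.2, 26.3 and 27.9 RPKM in NELP, 28.5, 30.3 and 29.0 RPKM in ELP and 8.02 and 15.5 RPKM in Glc, with all wood libraries above Glc (NELP higher by 1.42 ± 0.31, adjusted p = 0.0148, and 0.0765 rescaled).

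Other families rose on wood gene by gene. The glutathione peroxidase Phlgi1_89284 was called higher in NELP than in Glc by 1.76 ± 0.56 (adjusted p = 0.0455, and 0.228 rescaled), while ELP was not called (-0.17 ± 0.56, adjusted p = 0.826). Against Glc 1 alone its NELP difference was 0.85, and against Glc 2 alone 2.67. The MAPEG protein Phlgi1_36079 was higher in NELP by 1.42 ± 0.40 (adjusted p = 0.0320, and 0.186 rescaled). Thioredoxin-like Phlgi1_79604 had 46.4, 48.2 and 34.7 RPKM in NELP, 86.0, 58.5 and 58.0 RPKM in ELP and 14.7 and 23.2 RPKM in Glc, every wood library above glucose and ELP above NELP. It was higher in ELP than in Glc by 1.81 ± 0.30 (adjusted p = 0.00477, and 0.0173 rescaled). Thioredoxin-like Phlgi1_70589, described above for its high ELP level, was 2.86 ± 0.48 higher in ELP than in Glc (adjusted p = 0.00508, and 0.0264 rescaled), while NELP was not called (1.06 ± 0.48, adjusted p = 0.119). The glutaredoxin Phlgi1_17880 was higher in ELP by 1.04 ± 0.35 (adjusted p = 0.0442, and 0.458 rescaled). The cysteine peroxiredoxin Phlgi1_91504, the catalase Phlgi1_99700 and the GFA gene Phlgi1_18030 were called higher in both wood media as deposited and in neither after rescaling.

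Genes called lower on wood than on glucose showed a few patterns. In 4 of them ELP alone was low. The log2 difference of the peroxiredoxin Phlgi1_95619 from Glc was -2.06 ± 0.31 in ELP (adjusted p = 0.00386) and -0.14 ± 0.31 in NELP (adjusted p = 0.742). That of the GST Phlgi1_113065 was -1.59 ± 0.25 in ELP (adjusted p = 0.00412) and 0.21 ± 0.25 in NELP (adjusted p = 0.513), and that of thioredoxin reductase Phlgi1_111766 -0.87 ± 0.23 in ELP (adjusted p = 0.0190) and 0.11 ± 0.23 in NELP (adjusted p = 0.724). The GST Phlgi1_10115, described above, was the fourth (-1.41 ± 0.40 in ELP, adjusted p = 0.0262, and -0.03 ± 0.40 in NELP, adjusted p = 0.956). All 4 kept the ELP call after rescaling (adjusted p = 0.00375, 0.00315, 0.0103 and 0.0157). In the fit of ELP and Glc alone, Phlgi1_95619 and Phlgi1_113065 kept it (adjusted p = 0.0331 and 0.0342). Phlgi1_111766 and Phlgi1_10115 did not (adjusted p = 0.0787 and 0.0527), and the same was so with rescaling as well. In other genes Glc 1 lay far above every other library. The peroxiredoxin Phlgi1_94967 had 2332 and 164 RPKM in Glc against 43.8 to 88.0 on wood, and was called lower in NELP (-2.97 ± 0.91, adjusted p = 0.0397) and in ELP (-3.70 ± 0.91, adjusted p = 0.0154), also after rescaling (adjusted p = 0.0498 and 0.0213). Against Glc 2 alone it was -1.06 in NELP and -1.78 in ELP. Thioredoxin-like Phlgi1_108358 had 43.5, 41.0 and 33.2 RPKM in NELP, 61.7, 57.1 and 38.9 RPKM in ELP and 1068 and 84.4 RPKM in Glc. It was called lower in both wood media (-2.93 ± 0.88 and -2.53 ± 0.88, adjusted p = 0.0376 and 0.0493, and 0.0469 and 0.0476 rescaled). Against Glc 2 alone the differences were -1.10 in NELP and -0.71 in ELP. The glutaredoxin Phlgi1_100311 had 72.6, 83.4 and 56.8 RPKM in NELP, 75.9, 55.7 and 47.0 RPKM in ELP and 959 and 96.9 RPKM in Glc. It was called lower in ELP (-2.38 ± 0.81, adjusted p = 0.0456, and 0.0429 rescaled), and against Glc 2 alone the difference was -0.73. Thioredoxin-like Phlgi1_23447 had 66.8 and 11.5 RPKM in Glc and differed in NELP by -3.66 ± 0.63 (adjusted p = 0.00805, and 0.0102 rescaled), or -2.42 against Glc 2 alone. The GST Phlgi1_72050 (-1.81 ± 0.34, adjusted p = 0.00969) and the GFA gene Phlgi1_124928 (-1.65 ± 0.45, adjusted p = 0.0289) were called lower in NELP as deposited and after rescaling (adjusted p = 0.0101 and 0.0250). In ELP neither was called as deposited (adjusted p = 0.149 and 0.331), and Phlgi1_72050 was called lower there after rescaling (adjusted p = 0.0478, against 0.103 for Phlgi1_124928).

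The split between the Glc cultures ran in both directions. Glc 1 was over 2-fold above Glc 2 in 21 members (23.6%, against 11.1% of all genes) and Glc 2 over 2-fold above Glc 1 in 23 (25.8%, against 23.9%). On the Glc 1 side stood the peroxiredoxin Phlgi1_94967, the glutaredoxin Phlgi1_100311 and the thioredoxin-like Phlgi1_108358, with Glc 1 to Glc 2 ratios of 14.2, 9.89 and 12.7. The glutathione peroxidase Phlgi1_89284 (263 and 74.3 RPKM), the GST Phlgi1_31921 (257 and 58.4 RPKM) and the superoxide dismutase Phlgi1_102150 (135 and 49.1 RPKM) lay on the same side. On the Glc 2 side stood the catalase Phlgi1_83711, the GST Phlgi1_129073 and the redoxin-domain gene Phlgi1_112953 (26.4 and 172 RPKM), with Glc 2 to Glc 1 ratios of 10.2, 9.95 and 6.51. Which of the 2 cultures is typical of glucose cannot be told from 2 libraries, and the part of culture state in these ratios was not tested. Outside the members, cytochrome c peroxidase Phlgi1_127931, a mitochondrial peroxidase, showed the same split with 613 and 75.9 RPKM in Glc against 68.1, 65.9 and 53.9 RPKM in NELP and 73.7, 59.1 and 43.6 RPKM in ELP.

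**Figure D5:**
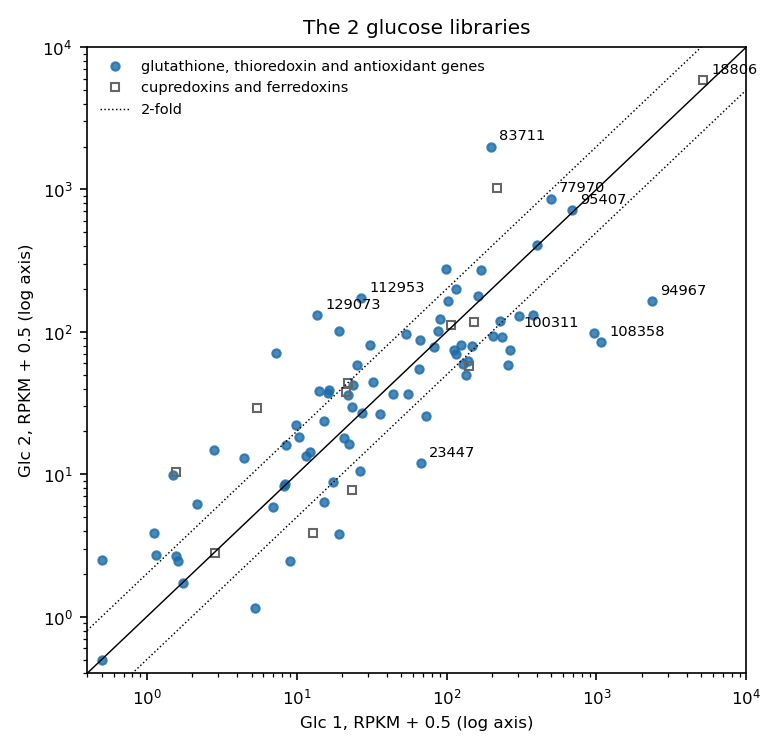
RPKM + 0.5 of the 91 genes in Glc 1 (horizontal) and Glc 2 (vertical), both on log axes, with equality as a solid line and 2-fold limits dotted; numbers are protein numbers. The peroxiredoxin Phlgi1_94967, glutaredoxin Phlgi1_100311 and thioredoxin-like Phlgi1_108358 lie far below the line and catalase Phlgi1_83711 and the GST Phlgi1_129073 far above it.

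Another 17 genes matched words for glutathione synthesis and turnover, NADPH supply, methionine sulfoxide reductases, cytochrome c peroxidase and cystathionine beta-synthase. Some have only a cystathionine beta-synthase domain, which other proteins also carry. The words also matched genes of other function, such as the N-acetyl-gamma-glutamyl-phosphate reductase Phlgi1_107849 and the 3-hydroxyisobutyrate dehydrogenase Phlgi1_86910. Of the 17, 4 were higher and 1 lower in NELP than in Glc as deposited (29.5 and 3.67% of all genes), and 3 higher and 2 lower in ELP (37.3 and 5.14% of all genes). After rescaling, 1 was higher and 2 lower in NELP (6.64 and 7.09% of all genes), and none higher and 2 lower in ELP (10.6 and 11.4% of all genes). None was called between NELP and ELP in the 3-medium fit (2 higher and 1 lower at an unadjusted p under 0.05). The gene called lower in NELP as deposited, and lower in both wood media under either scaling, was a methionine sulfoxide reductase A, Phlgi1_27565, with 12.5, 11.2 and 11.2 RPKM in NELP, 8.50, 10.6 and 5.59 RPKM in ELP and 58.3 and 18.9 RPKM in Glc, all wood libraries below both Glc libraries. In the wood-only fit, 3 of the 17 were called, all higher in NELP (6.12% of all genes were). The methionine sulfoxide reductase A Phlgi1_62478, which repairs oxidized methionine with electrons from thioredoxin, had 232, 179.8 and 187 RPKM in NELP, 103, 99.8 and 71.5 RPKM in ELP and 139 and 214 RPKM in Glc. ELP was the low medium, below every NELP and Glc library, with a NELP to ELP difference of 1.13 on the log2 scale (adjusted p = 0.0201). A gamma-glutamyltranspeptidase, Phlgi1_113571, which starts the breakdown of glutathione, had 38.8, 31.8 and 34.1 RPKM in NELP, 21.8, 19.3 and 24.1 RPKM in ELP and 9.44 and 21.2 RPKM in Glc. It was higher in NELP than in ELP by 0.67 (adjusted p = 0.0379). The low gene Phlgi1_30807, with the function name cystathionine beta-synthase, had 6.91, 5.58 and 5.61 RPKM in NELP, 3.67, 4.20 and 3.85 RPKM in ELP and 5.75 and 3.10 RPKM in Glc. Its NELP libraries lay above all of ELP, with a difference of 0.56 just past the threshold (adjusted p = 0.0497). Glutamate-cysteine ligase, Phlgi1_63545, which catalyzes the first and usually limiting step of glutathione synthesis, had 81.4, 90.7 and 85.1 RPKM in NELP, 110.2, 129 and 197 RPKM in ELP and 112 and 139 RPKM in Glc. NELP lay below all ELP and Glc libraries, and ELP 3 was the highest. The difference of -0.71 was not called (adjusted p = 0.0781). Glucose-6-phosphate dehydrogenase, Phlgi1_18276, which supplies NADPH, had 105, 114 and 109 RPKM in NELP, 128, 128 and 132 RPKM in ELP and 187 and 61.8 RPKM in Glc, with the 2 Glc libraries on either side of the wood libraries.

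The 12 members found through letters alone have other functions. Cupredoxins are copper-binding domains, found for example in electron carriers and multicopper oxidases, and ferredoxins carry iron-sulfur clusters. The cupredoxin Phlgi1_18806, without an assigned function, had 1723, 1463 and 1401 RPKM in NELP, 1387, 1857 and 1527 RPKM in ELP and 5122 and 5876 RPKM in Glc, the highest mean of all 91 members. Both glucose libraries lay far above every wood library. It fell in NELP (-1.85 ± 0.22, adjusted p = 0.00312) and in ELP (-1.80 ± 0.22, adjusted p = 0.00251), also after rescaling and in the fits of only the media compared (adjusted p = 0.0279 and 0.0297). Another cupredoxin, Phlgi1_33880, went the opposite way with 104, 103 and 119 RPKM in NELP, 96.1, 93.2 and 112 RPKM in ELP and 21.4 and 43.4 RPKM in Glc, and was higher by 1.81 ± 0.30 in NELP (adjusted p = 0.00733) and 1.70 ± 0.30 in ELP (adjusted p = 0.00579), with rescaled adjusted p values of 0.0252 and 0.0285. Among ferredoxin-type genes the leading one, Phlgi1_27998, with the EC number of succinate dehydrogenase (1.3.5.1), had 131, 123 and 139 RPKM in NELP, 91.2, 97.0 and 99.995 RPKM in ELP and 107 and 111 RPKM in Glc, and no cupredoxin or ferredoxin was called between NELP and ELP in the wood-only fit. Against glucose, 1 of the 7 ferredoxins was called as deposited, Phlgi1_17514, with a difference of -0.86 ± 0.23 in ELP (adjusted p = 0.0203). After rescaling, 3 were called lower in ELP, Phlgi1_17514, Phlgi1_27998 and Phlgi1_128761 (adjusted p = 0.00800, 0.0235 and 0.0497), and Phlgi1_17514 also in NELP (adjusted p = 0.0410). Phlgi1_128761 has a ferredoxin description but the function name of an ABC protein (ABC-D), and its Glc libraries were far apart (141 and 57.3 RPKM). The members too low to be tested were the thioredoxin-like Phlgi1_16830, with 0.232 RPKM in NELP 1 and a listed value of 0 in the other 7 libraries, and the GST Phlgi1_417850, with 0.398, 0.609 and 0.445 RPKM in NELP, 0.341, 0.564 and 0.145 RPKM in ELP and 4.77 and 0.650 RPKM in Glc.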

How the data were processed

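Poly-A RNA of 3 NELP, 3 ELP and 2 Glc cultures was sequenced by the authors on an Illumina HiSeq2000 (CASAVA 1.8.2 in the submitters' processing notes). The deposited values are RPKM, for which the authors mapped reads with SeqNGen and used QSeq (both DNAStar) to scale the reads of each gene for its length and for the size of the library. The genome build, and how reads shared by similar genes were counted, were not given in the sources used here. Because the wood per culture differs between the study's methods and the labels, it is not stated. Sample groups came from the sample titles.

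RPKM are not counts, so log2(RPKM + 0.5) was fitted by limma (version 3.58.1, R 4.3.3) to all 8 libraries at once, for genes averaging 1 RPKM or more, with Benjamini-Hochberg adjustment over 10999 genes and calls at an adjusted p under 0.05. Fold changes on this scale understate the change of low genes. An exact permutation test of 3 against 3 cannot go below p = 0.10, so none was run. The procedure was tested on simulated data. Alternatives were a pseudocount of 1 or 0.1, no filter, rescaling by median ratio, only the media compared, a mean-variance trend, the replicate number as a block, and leaving out each library. Rescaling together with only the media compared, and the alternatives within the wood-only fit, were added after seeing the data.

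Members, classes and lists were chosen with earlier results of these data known. Genes described with statistics were the 2 named by the study, the most abundant of each class, the 5 largest changes per direction and comparison among called members with at least 10 RPKM in the higher medium, and every member called between NELP and ELP with at least 10 RPKM. Phlgi1_72050 (between NELP and ELP), Phlgi1_23447 (between NELP and ELP), Phlgi1_10115, Phlgi1_60352, Phlgi1_115839, Phlgi1_91504 (between NELP and ELP), Phlgi1_30807, Phlgi1_128761, the rows of neighbouring genes and the genes of the Glc split were named after their values were seen. Gene order came from a reference table of assembly Phlgi1, in which all 91 members matched by number. No sequences were used here.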

Additional observations from a re-analysis of the deposited data

How the results depend on the processing

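Changing the pseudocount, the filter, the trend or the block left every count against Glc within 1.5 times. No setting reversed the sign of a change selected by size, or of a member called between NELP and ELP with at least 10 RPKM. Small differences outside that selection could reverse. That of the GST Phlgi1_113065 from Glc in NELP was 0.21 as deposited and -0.36 rescaled. Rescaling gave 2 members higher and 10 lower in NELP than in Glc, 6 and 19 in ELP, and 1 higher in NELP than in ELP. With only the media compared the counts were 2 and 3, 11 and 3, and 7 and 6, and with rescaling as well 0 and 1, 0 and 3, and 8 and 7. The cause of these shifts was not tested. The trend gave 1 member higher in NELP than in ELP (0.118% of all genes). Leaving out 1 library gave 4 to 32 members higher and 3 to 15 lower in NELP than in Glc, 11 to 36 and 5 to 20 in ELP, and 0 to 7 and 0 to 6 between NELP and ELP, where only the fits without a Glc library called any, since a lone Glc library adds no spread. In the wood-only fit the range was 2 to 7 higher and 2 to 9 lower in NELP (0.882 to 6 and 0.227 to 6.46% of all genes). Replicate numbers did not pair the samples (correlations of deviations 0.40, -0.15 and 0.50 for numbers 1, 2 and 3, and NELP 2 correlated best with ELP 1). With the replicate number as a block, 12 members were higher and 4 lower in NELP than in Glc (23.6 and 2.63% of all genes). In ELP 18 were higher and 7 lower (34.2 and 4.15% of all genes). Between NELP and ELP none was called in the 3-medium fit (0.0182 and 0% of all genes). In the wood-only fit 9 were higher and 13 lower in NELP (10.2 and 13.5% of all genes). Depth in reads is unknown, p values rest on 2 or 3 cultures, and values under 10 RPKM are the least precise, most of all in the shallower ELP libraries.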
